A study of Prunus persica with 8 samples.

Results

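Among the genes expressed in dormant peach flower buds, 62 held a steady transcript level at 0, 200 and 475 chilling units (CU) and were higher at 770CU. They were chosen by these values themselves, out of the 22285 features of the deposited table. A gene was taken when its identifier began with PRUPE_, when it reached at least 5 FPKM (fragment counts corrected for the length of the transcript and the depth of the library) in 1 of the 4 stages, when log2(FPKM + 1) varied by less than 0.5 over the first 3 stages, and when it was higher by at least 0.8 at 770CU than at 475CU. The pattern that chose the genes is therefore given as a description without a test. What the choice did not use is the spread between the single libraries of a stage, of which only the mean entered, and the place of the genes in the genome.

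Buds of the nectarine cultivar Fantasia gave the RNA, and were collected from 10-year-old orchard trees during the autumn and winter rest. The labels list 8 libraries, 2 for each of the stages 0CU, 200CU, 475CU and 770CU, prepared after removal of ribosomal RNA and read as 150 nt pairs. The paper's methods describe buds taken from groups of 3 to 4 plants, with bud scales removed before use. They name 2 biological replicates for 0CU and 770CU but 3 for 475CU, and do not mention a collection at 200CU. The labels name no treatment and give 1 day of collection for each stage, so a stage and its day of collection cannot be told apart. The buds were not separated into cell types, so a change in the share of a cell type and a change of RNA per cell cannot be told apart either.

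Flower buds of temperate fruit trees stop growing in autumn and enter endodormancy, a rest that is kept up from within the bud. Exposure to cold, counted as chilling units, releases this rest, after which the bud can respond to warmth and grow toward bloom. The table does not pair its identifiers with gene names, and 0 of the 62 identifiers matched the 26412 genes of the RefSeq table for peach (assembly Prunus_persica_NCBIv2), so no product or function is given for them.

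A level of at least 5 FPKM in a stage was reached by 12883 of 20833 PRUPE_ genes, the 6 genes numbered 1G531100 to 1G531700 having been left out beforehand. Of these, 9648 (74.9%) were steady over the first 3 stages. A rise of at least 0.8 between 475CU and 770CU was found in 171 genes (1.33% of the 12883), and 109 of them had already varied by 0.5 or more before. The 62 steady genes are 36.3% of the rising genes and 0.643% of the steady ones. In the deposited values the opposite step was more common, since 484 genes (3.76%) fell by at least 0.8 and 154 of those were steady before. This balance can shift with the scaling of the stages to each other, and the falls were not counted under other scalings. The plot of every gene by its earlier range and its late step shows the 62 in the corner that both limits enclose.

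**Figure D1:**
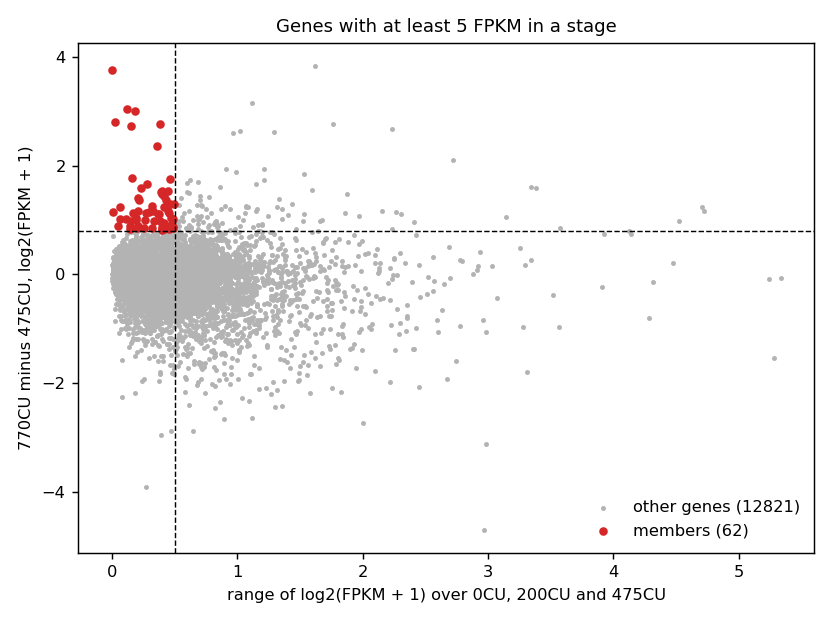
Each point is 1 gene with at least 5 FPKM in a stage, placed by the range of log2(FPKM + 1) over 0CU, 200CU and 475CU (horizontal) and by the difference 770CU minus 475CU (vertical), with the limits of 0.5 and 0.8 dashed. The 62 chosen genes (red) reach from 0.82 to 3.76 on the vertical axis, against a median of -0.011 over all 12883 genes.

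The median level of the 62 genes was 4.78 FPKM at 0CU, 4.33 FPKM at 200CU, 5.20 FPKM at 475CU and 13.02 FPKM at 770CU. Over all 12883 genes the medians stayed between 14.3 and 14.6 FPKM at the 4 stages. The 62 thus lay below the typical expressed gene through the first 3 stages and close to it at 770CU. This follows in part from the choice, since a gene that was low before could pass the floor through 770CU alone. Their difference between 770CU and 475CU had a median of 1.13 on the log2(FPKM + 1) scale, a scale that understates the change of low genes, and was at least 1 in 41 genes and at least 2 in 7. Against 0CU instead of 475CU the level at 770CU was higher by a median of 1.10, and by at least 0.8 in 53 of the 62. Summed over the 62, FPKM came to 721.5 (0CU), 620.2 (200CU), 721.3 (475CU) and 1629 (770CU), and without the 2 genes above 200 FPKM it was 452.1, 418.4, 463.1 and 1133 FPKM.

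The genes are described by their level before the rise. The size of the step in these groups follows in part from the choice itself, since genes that were low before had to reach 5 FPKM at 770CU to be taken, and since a difference of 0.8 on the log2(FPKM + 1) scale asks for a larger ratio the lower a gene is. In 5 genes every earlier stage was under 1 FPKM. These had 6.84 to 12.5 FPKM at 770CU and a median difference of 2.996 on the log2(FPKM + 1) scale. A further 24 genes, whose highest earlier stage lay between 1 and 5 FPKM, had 5.13 to 14.5 FPKM at 770CU and a median level 2.60 times that at 475CU. For the 26 genes at 5 to 20 FPKM before, the level at 770CU was 10.4 to 51.5 FPKM and the median ratio to 475CU was 2.23. The 7 genes at 20 FPKM or more had 33.9 to 287.8 FPKM at 770CU and a median ratio of 1.98. At 770CU 24 of the 62 genes were still under 10 FPKM, 9 of them between 5 and 6 FPKM, and 22 were at 20 FPKM or over.

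**Figure D2:**
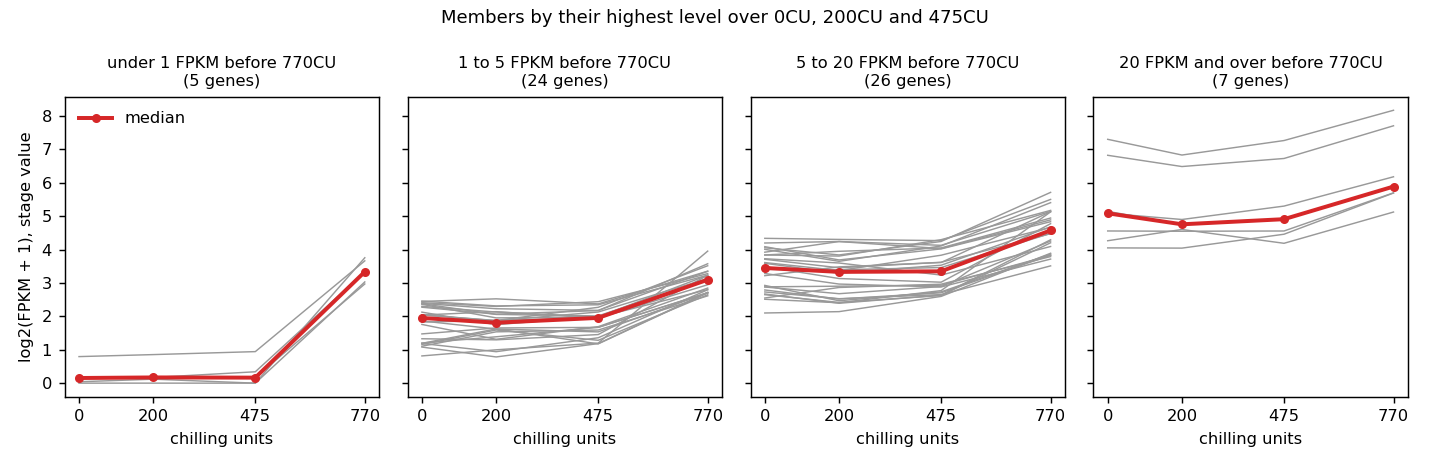
Stage values of the 62 genes on the log2(FPKM + 1) scale against chilling units, in 4 panels by the highest level before 770CU, with each gene in grey and the median of the panel in red. The 5 genes under 1 FPKM rose by a median of 2.996, and the 7 genes at 20 FPKM or over by 0.98.

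A value of the table is a single number for a stage and carries no replicates. For 60 of the 62 genes the 4 values could be written, to the digits of the file, as means over a pair of libraries, each with an integer fragment number, with the same gene length throughout. This was done for 21442 of all features (96.2%), with library sizes between 18051083 and 25374451 fragments. Which of these libraries carries which replicate number is not known, and they are called here the larger and the smaller library of a stage. The lengths are the shortest that the values allow, so that fragment numbers and lengths may be too small by a common factor, which leaves the FPKM as they are. The 60 genes had a median of 936 fragments at 770CU and 295 at 475CU, summed over both libraries. Their median length was 1561 bases, against 2268 bases over all recovered genes with at least 5 FPKM.

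Of the 60 genes, 59 had both 770CU libraries above all 6 libraries of the earlier stages. Over all recovered genes with at least 5 FPKM this held for 16.2%. All 60 had both 770CU libraries above both 475CU libraries, against 29.9% of all recovered genes. Since the means of these libraries chose the genes, the counts describe how evenly the libraries share the step and test nothing. The distance from the lower 770CU library to the highest earlier library had a median of 0.79 on the log2(FPKM + 1) scale and was at least 0.8 in 29 genes. The step from 475CU to 770CU was at least 3 times the SD within stages (pooled over the 4 pairs of libraries) in 58 genes and at least 5 times in 44. The lowest such ratio was 2.23 and the median 7.15. These ratios also follow in part from the choice, which asked for a step of at least 0.8 where the median SD within stages was 0.17. They were not set beside those of all genes.

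The exception was PRUPE_8G131500. The larger and the smaller library had 20.6 and 15.9 FPKM (0CU), 28.6 and 18.0 FPKM (200CU), 18.2 and 16.3 FPKM (475CU), and 40.3 and 27.5 FPKM (770CU). The smaller 770CU library therefore lay under the larger 200CU library, and the larger library was the higher of the pair at every stage. The next narrowest was PRUPE_3G222400, whose lower 770CU library had 14.49 FPKM, against 13.04 FPKM in the highest earlier library, again from 200CU. Both genes were named after their values had been seen.

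The gene with the largest step was PRUPE_6G123400. It was listed at 0 in the first 3 stages and at 12.5 FPKM at 770CU, a difference of 3.76 on the log2(FPKM + 1) scale, for which no ratio can be given. It is also 1 of the 2 genes whose libraries could not be separated, the other being PRUPE_5G118000. If its stage values are means of 2 libraries like the others, a value of 0 allows no counted fragment in either library. What stays unknown is then how its 770CU value is shared between the libraries.

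PRUPE_6G123200, a near neighbour by its identifier, followed with a difference of 3.03. Its libraries held 0 and 1 fragments (0CU), 3 and 1 (200CU), 0 and 0 (475CU), and 229 and 96 (770CU), the last being 9.65 and 4.71 FPKM. A count of 0 allows up to 3 fragments in a library, which is 0.150 FPKM for this gene at 475CU, so the stage value at 770CU was at least 47.8-fold higher, and the lower 770CU library alone at least 31.4-fold higher. The larger 770CU library had 2.05 times the FPKM of the smaller, a wide gap that was nevertheless small beside the distance to the earlier libraries.

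PRUPE_1G114700 had 0.060 and 0.172 FPKM (0CU), 0.195 and 0.056 FPKM (200CU), 0.254 and 0.278 FPKM (475CU), and 11.97 and 6.23 FPKM (770CU). The stage value at 770CU was 34.2 times that at 475CU, and the fragments behind it were 481 and 215 at 770CU, against 9 and 9 at 475CU. PRUPE_5G220400 had 0.040 and 0.185 FPKM (0CU), 0.230 and 0.038 FPKM (200CU), 0.076 and 0.166 FPKM (475CU), and 8.27 and 5.42 FPKM (770CU). In both genes the 770CU libraries stood far above the rest and every earlier library held fewer than 10 fragments. The ratio of 56.5 for PRUPE_5G220400 rests on 2 and 4 fragments at 475CU, and its size is accordingly uncertain.

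The fifth largest step was that of PRUPE_7G159600, with 0.651 and 0.869 FPKM (0CU), 1.07 and 0.928 FPKM (200CU), 1.18 and 1.41 FPKM (475CU), and 15.9 and 13.1 FPKM (770CU). Its immediate neighbour in the list of identifiers, PRUPE_7G159500, had 0.661 and 0.810 FPKM (0CU), 0.775 and 0.843 FPKM (200CU), 0.943 and 0.906 FPKM (475CU), and 13.1 and 10.2 FPKM (770CU). The 2 genes are thus alike in level and step, with ratios of 11.2 and 12.6 between 770CU and 475CU. They are the only directly adjacent pair among the 62, and if their sequences are near copies the counting could have divided reads between them, which was not tested. Well supported by depth at every stage was PRUPE_5G008200, with stage values of 4.71 FPKM (0CU), 4.31 FPKM (200CU), 5.83 FPKM (475CU) and 34.0 FPKM (770CU). Its 770CU libraries had 32.7 and 35.3 FPKM and its 6 earlier libraries lay between 3.78 and 6.10 FPKM.

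In all 4 recovered genes under 1 FPKM before 770CU, PRUPE_6G123200, PRUPE_1G114700, PRUPE_5G220400 and PRUPE_7G159500, the larger 770CU library was the higher of the pair. Among all 60 genes it was the higher in 35 (58.3%), and over all recovered genes with at least 5 FPKM in 54.7%. The gap between the 770CU libraries was within a factor of 1.5 in 57 of the 60 genes. The largest folds are therefore carried by both 770CU libraries, but with unequal weight in the 2 libraries.

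**Figure D3:**
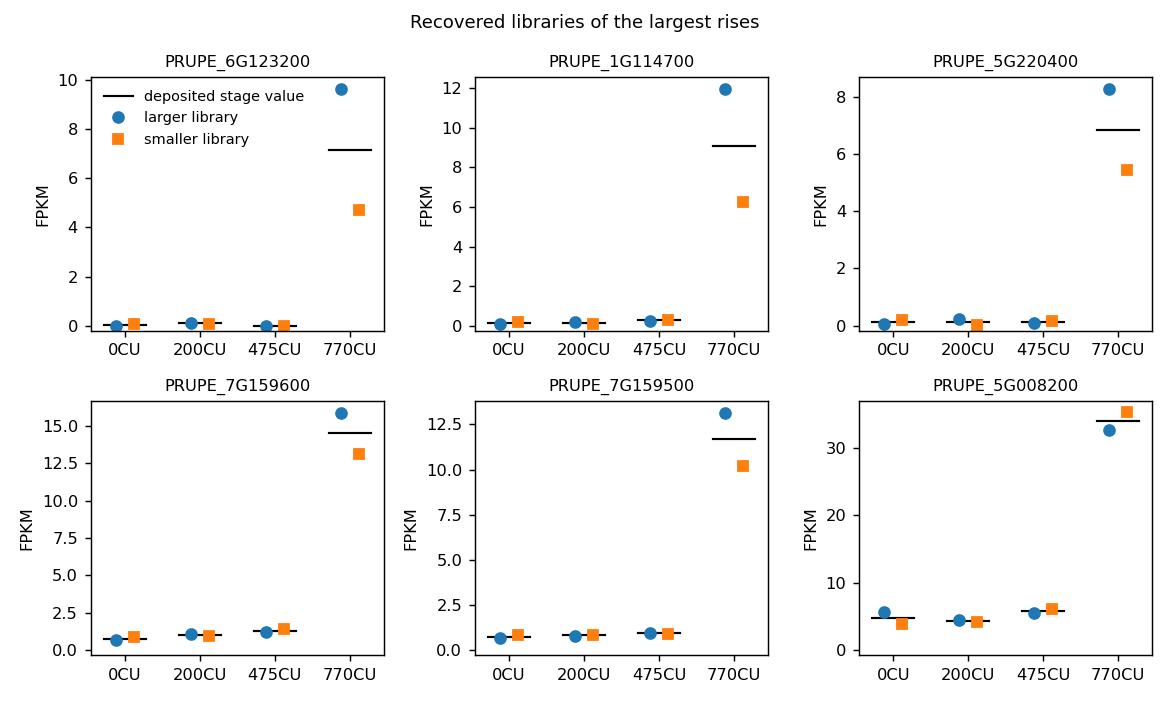
FPKM of the larger (circle) and smaller (square) library and the deposited stage value (bar) at 0CU, 200CU, 475CU and 770CU, for the 6 recovered genes with the largest steps, each on its own linear axis from 0. Every 770CU library is above every earlier one, and in PRUPE_6G123200 the pair at 770CU has 9.65 and 4.71 FPKM.

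The 5 most abundant of the 62 genes had ratios of 770CU to 475CU between 1.86 and 2.87. PRUPE_5G118000 had stage values of 157.0 FPKM at 0CU, 113.0 FPKM at 200CU, 153.0 FPKM at 475CU and 287.8 FPKM at 770CU. PRUPE_4G177600 had 135.3 and 89.5 FPKM (0CU), 86.1 and 91.5 FPKM (200CU), 115.6 and 94.6 FPKM (475CU), and 195.4 and 221.2 FPKM (770CU). Both lay lowest at 200CU, and in PRUPE_4G177600 the larger 0CU library exceeded every other library before 770CU. PRUPE_8G093900 had 69.8 and 73.4 FPKM at 770CU, against 37.0 and 40.0 FPKM at 475CU. PRUPE_4G004600 had 61.8 and 54.7 FPKM at 770CU, against 31.1 and 27.1 FPKM at 475CU. The fifth by level, PRUPE_6G329600, had 56.3 and 46.8 FPKM at 770CU, against 18.8 and 17.0 FPKM at 475CU, the largest step of these 5 with 1.47 on the log2(FPKM + 1) scale. The 770CU libraries of the 4 recovered genes did not overlap those of any earlier stage.

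The steadiest gene among those detected before 770CU was PRUPE_8G238300, with stage values of 22.6 FPKM at 0CU, 22.4 FPKM at 200CU and 22.5 FPKM at 475CU, a range of 0.0079 on the log2(FPKM + 1) scale. Its libraries had 23.3 and 21.8 FPKM (0CU), 23.7 and 21.2 FPKM (200CU), 23.8 and 21.3 FPKM (475CU), and 52.2 and 49.8 FPKM (770CU). The 6 earlier libraries thus span little more than the pair at 200CU, and the level at 770CU was 2.26 times that at 475CU. PRUPE_5G220400 came next with a range of 0.027, at levels close to the limit of detection. In 23 of the 62 genes the range was under 0.25, and in 22 it was 0.4 or more.

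Steadiness in the stage values did not always mean steadiness in the libraries. The range over all 6 libraries of the first 3 stages had a median of 0.58 in the 60 genes, against 0.39 in the recovered steady genes as a whole. It was below 0.5 in 26 of the 60 (43.3%), against 73.5% of the steady genes. This range also includes differences between the stages. The range of the stage values alone already had a median of 0.333 in the 62 genes, against 0.245 in all steady genes. The median SD within stages was 0.17 in the 60 genes, against 0.103 in all recovered genes with at least 5 FPKM. The SD of the log2 difference between the libraries of a stage was 0.33 (0CU), 0.32 (200CU), 0.21 (475CU) and 0.26 (770CU), against 0.25, 0.24, 0.18 and 0.17 for all recovered genes at the same stages. At every stage the libraries of the chosen genes thus differed more than those of all recovered genes. Restricted to genes under 20 FPKM at 770CU, the SD was 0.28 (0CU), 0.31 (200CU), 0.23 (475CU) and 0.28 (770CU) in 39 of the chosen genes, against 0.23, 0.23, 0.16 and 0.16 in 6894 genes between 5 and 20 FPKM. The 39 and the 6894 genes are alike in level at 770CU only. At 475CU the 60 genes had a median of 295 fragments, against 1436 over all recovered genes with at least 5 FPKM. The part of depth in the spread was not tested. Without the genes under 1 FPKM before 770CU, the SD was 0.34 (0CU), 0.33 (200CU), 0.22 (475CU) and 0.21 (770CU) in the remaining 56 chosen genes.

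The widest spread was that of PRUPE_6G182200, with an SD of 0.53. Its libraries had 14.4 and 6.03 FPKM (0CU), 5.27 and 10.3 FPKM (200CU), 7.26 and 7.00 FPKM (475CU), and 30.7 and 22.2 FPKM (770CU). The steady stage means of this gene hide pairs that differ in opposite directions at 0CU and 200CU. A like order was seen in PRUPE_8G082100, with 21.9 and 12.8 FPKM (0CU), 15.4 and 20.4 FPKM (200CU), 15.9 and 17.1 FPKM (475CU), and 30.7 and 38.1 FPKM (770CU). Both were chosen for their spread after the values had been seen. Among chosen genes with at least 10 fragments in both 0CU libraries, the larger library had at least 1.5 times the level of the smaller in 8, and the reverse held in 2. Without this minimum the counts were 8 and 5. By any margin the larger 0CU library was the higher in 31 of the 60 genes (51.7%), against 46.5% of all recovered genes with at least 5 FPKM.

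The libraries also allowed the rise to be read in libraries that had not chosen the genes. The same rule applied to the larger library of each stage took 73 genes, of which 45 are among the 62. In the smaller libraries these 73 had a median difference of 1.01 between 770CU and 475CU, against 1.09 in the libraries that chose them. It was above 0 in all 73 and at least 0.8 in 57 (78.1%), where 1.53% of all recovered genes in this comparison reached 0.8 and 47.0% were above 0. The rule applied to the smaller libraries took 58 genes, 36 of them among the 62. In the larger libraries these had a median difference of 0.92, against 0.95 in the libraries that chose them, and it was at least 0.8 in 37 (63.8%), where 1.69% of all recovered genes did so. In 3 of the 58 the larger libraries were not higher at 770CU, the lowest difference being -0.66.

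The rise itself was thus found again in most genes, whereas the whole rule, steadiness included, was met in the other libraries by 32 of the 73 and 27 of the 58 genes. Libraries of a stage share the day of collection and the trees' orchard, so this compares libraries within the same collection. With 2 libraries per stage these shares are descriptions.

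**Figure D4:**
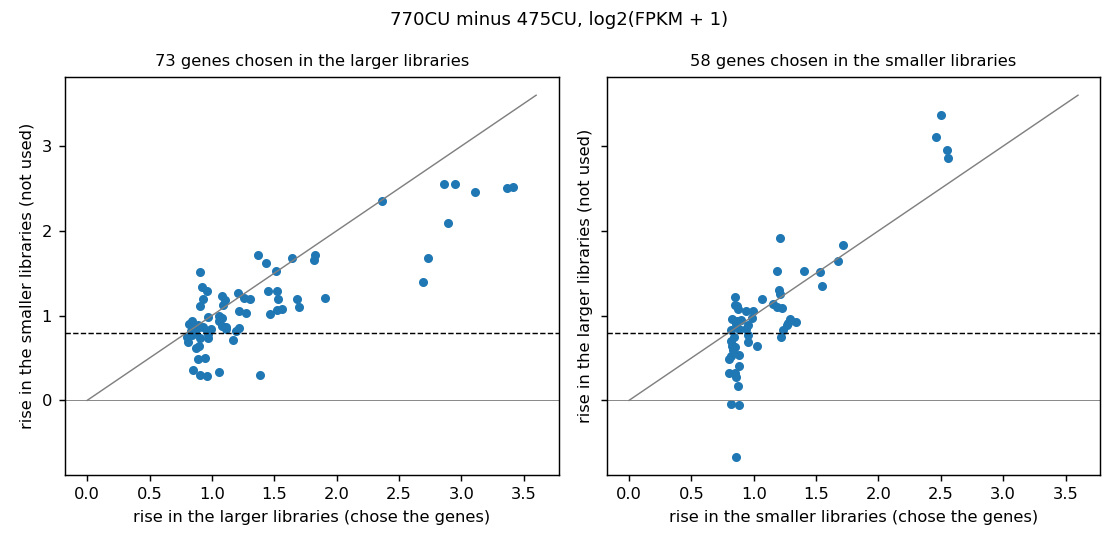
Difference 770CU minus 475CU of log2(FPKM + 1) in the libraries that chose the genes (horizontal) and in the other libraries (vertical), for 73 genes chosen in the larger and 58 in the smaller libraries, with equality as a grey line and 0.8 dashed. In the libraries not used, 57 of 73 and 37 of 58 genes reach 0.8.

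Within the allowed range, the first 3 stages had an uneven order. The lowest of them was 200CU in 32 of the 62 genes (51.6%), against 30.8% of all steady genes, and the highest was 200CU in 9 (14.5%), against 28.5%. The level at 200CU was under that at 0CU in 40 genes, and that at 475CU above 200CU in 44. The median differences were small, -0.14 for 200CU minus 0CU and 0.13 for 475CU minus 200CU. The 154 genes that were steady and then fell had the opposite order, with 200CU the highest in 81 (52.6%) and the lowest in 18 (11.7%). The limits of both choices act on these same stage values, and no test was made. The order also depends on how the stages are scaled to each other. An equal sum of FPKM for all stages would multiply the values by 0.888 (0CU), 1.057 (200CU) and 0.956 (475CU). The order was not counted under such a scaling, so the low level at 200CU holds for the deposited values only.

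The genes lay on all 8 chromosomes, which the digit before G in an identifier names. Chromosome 3 held 11 of them (17.7%), against 11.4% of the genes with at least 5 FPKM, and chromosome 1 held 9 (14.5%), against 22.8%. The other chromosomes held 6 to 10 each. Close pairs, with at most 2 listed features between the genes, numbered 4 and take up 8 of the 62: PRUPE_7G159500 with PRUPE_7G159600, PRUPE_6G123200 with PRUPE_6G123400, PRUPE_4G065900 with PRUPE_4G066300, and PRUPE_6G225900 with PRUPE_6G226200. Among the 154 falling genes there were 10 such pairs with 20 genes. No count for sets drawn from all genes with at least 5 FPKM stands beside these, so whether the pairs are many or few cannot be said.

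The stretch of chromosome 6 around PRUPE_6G123200 and PRUPE_6G123400 was examined after their values had been seen. PRUPE_6G123300, listed between them, had 3.57 and 1.61 FPKM in the 770CU libraries, from 31 and 12 fragments, against 0 fragments in all 6 earlier libraries. PRUPE_6G123700 had 2.24 and 1.01 FPKM at 770CU, from 62 and 24 fragments, against 1 and 0 fragments at 475CU. Both stayed under the floor of 5 FPKM and are not among the 62, but they share the pattern of their neighbours. In PRUPE_6G123200, PRUPE_6G123300 and PRUPE_6G123700 alike, the larger 770CU library had over 2 times the FPKM of the smaller.

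The late appearance did not extend to every listed gene of the stretch. PRUPE_6G123100 had 2.71 FPKM at 770CU, against 2.28 FPKM at 475CU. PRUPE_6G123500, listed between PRUPE_6G123400 and PRUPE_6G123700, had 4.81 FPKM at 770CU, against 5.34 FPKM at 475CU. PRUPE_6G123800 had 128.1 FPKM at 770CU, against 154.2 FPKM at 475CU. The genes detected almost only at 770CU thus stand among neighbours with little change at that step. Reads shared between near-identical copies in this stretch could not be examined, and their part in these values was not tested.

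Around the pair on chromosome 7 the neighbours behaved otherwise than the pair. PRUPE_7G159400 had 0.651 FPKM at 770CU, against 1.06 FPKM at 475CU, and PRUPE_7G159700 had 1.997 FPKM at 770CU, against 2.72 FPKM at 475CU. In the pair of PRUPE_4G065900 (12.1 FPKM at 770CU, against 6.36 FPKM at 475CU) and PRUPE_4G066300 (13.3 FPKM, against 5.53 FPKM), the feature between them was lower at 770CU, with 2.51 FPKM, against 3.82 FPKM at 475CU. Of the 2 features between PRUPE_6G225900 (41.4 FPKM at 770CU, against 16.3 FPKM at 475CU) and PRUPE_6G226200 (7.67 FPKM, against 3.04 FPKM), one was higher at 770CU by 0.69 on the log2(FPKM + 1) scale and the other differed by -0.47.

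The genes nearest to the limits show how narrow the choice is. Just inside the limit on the rise lay PRUPE_2G294600 at 0.82, PRUPE_4G118600 at 0.83 and PRUPE_3G095000 at 0.83. Just outside lay PRUPE_1G152400, PRUPE_3G014300 and PRUPE_6G004800, at 0.7975, 0.79 and 0.79 on the log2(FPKM + 1) scale. PRUPE_1G152400 missed it with 118.5 FPKM at 770CU, against 67.8 FPKM at 475CU. On the range of the first 3 stages, PRUPE_2G113000, PRUPE_7G267900 and PRUPE_3G222400 lay just inside at 0.497, 0.49 and 0.49. PRUPE_8G095700, PRUPE_1G419900 and PRUPE_4G140700 lay just outside at 0.51, 0.52 and 0.53. In all, 21 of the 62 genes had a rise between 0.8 and 1.

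None of the chromatin genes that the paper names is among the 62. These are CMT3-like (PRUPE_6G011600), HDA19-like (PRUPE_8G183700), MBD8-like (PRUPE_8G062800), ATXR7-like (PRUPE_2G042400), SUVR2-like (PRUPE_8G216300) and JMJ24-like (PRUPE_6G322900), named after Arabidopsis regulators of DNA and histone methylation or histone acetylation. The 62 make up 0.481% of the genes with at least 5 FPKM, so the absence of so few named genes says nothing about them. Over the first 3 stages CMT3-like, HDA19-like and MBD8-like ranged over 0.64, 0.81 and 0.55, above the limit of 0.5. The differences of the chromatin genes between 770CU and 475CU lay between -0.15 for CMT3-like and 0.11 for HDA19-like. HEC3-like (PRUPE_6G159200), the fruit transcription factor gene also called FLESHY, had 0.153 FPKM (0CU), 0.232 FPKM (200CU), 0.348 FPKM (475CU) and 0.921 FPKM (770CU). It was thus higher at 770CU than before, by 0.51 over 475CU, but under the floor of 5 FPKM. The ubiquitin gene UBQ (PRUPE_4G204900) had 84.9 FPKM (0CU), 42.6 FPKM (200CU), 69.7 FPKM (475CU) and 81.9 FPKM (770CU).

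How many genes follow the pattern depends on how the stages are scaled to each other. Over all features FPKM summed to 763437 (0CU), 641480 (200CU), 709837 (475CU) and 598455 (770CU), and features with ENSRNA identifiers held 42.5%, 30.5%, 35.0% and 28.6% of it. Giving all stages an equal sum (TPM) moved the median difference of all genes between 770CU and 475CU to 0.22, from -0.011 as deposited. Under it 162 genes met the rule, 51 of them among the 62. The other scalings took 63 to 90 genes and retained at least 60 of the 62. The 11 genes lost under TPM still rose by more than the limit there, and left because their first 3 stages then ranged over 0.5 or more. Under all 4 scalings 48 of the 62 genes were kept.

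**Figure D5:**
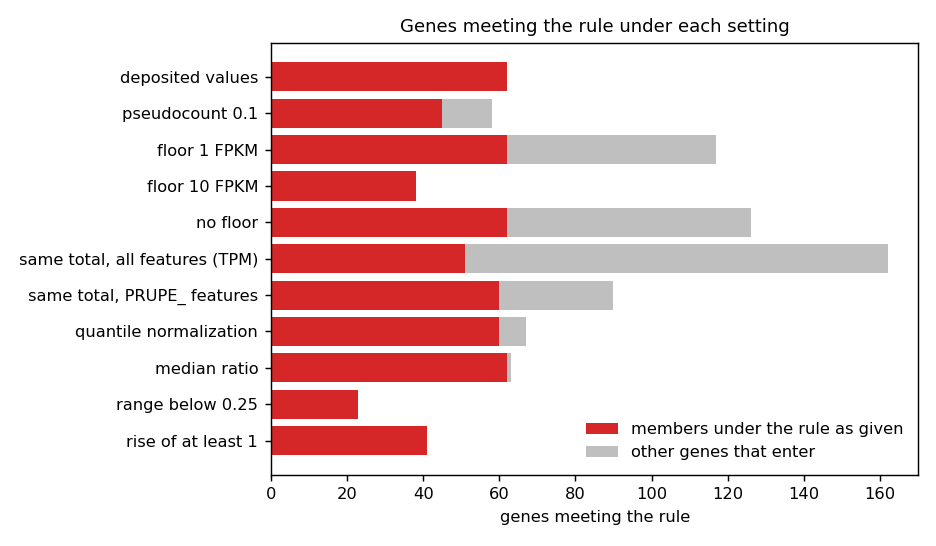
Number of genes meeting the rule under the deposited values and under 10 other settings, with genes of the original 62 in red and other genes in grey. The count runs from 23 with a range below 0.25 to 162 under TPM, of which 51 are among the 62.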

How the data were processed

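RNA-Seq of flower buds at 4 stages was used. The authors deposited 1 table of FPKM with 22285 features and 1 column per stage, of which 0 were left unused. The submitters' processing notes name Trimmomatic 0.39, HISAT2 and featureCounts. The genome build, the annotation and the treatment of strand are not given in the sources used here.

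The genes were selected on log2(FPKM + 1) with the limits stated above. Members and lists were chosen with earlier results of these data known. Named are the 5 largest rises, the 5 highest levels at 770CU, the 3 smallest earlier ranges, the 3 genes on each side of both limits, the longest run of neighbouring identifiers and the genes the paper names. Further genes are marked as chosen after their values were seen, or stand beside these as neighbours or as next in order. No model was fitted and no p-value computed, because a stage has 1 deposited value and the rule uses it.

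Each stage value was also solved as an average over 2 libraries, where fragments are integers divided by feature length and library size, with lengths from 30 to 20000 searched. Rebuilt values differed from the deposited ones above 1 FPKM by at most 5.0e-10 in relative terms. After relative shifts of up to 1e-06 in 2000 features 8 were solved, against 1932 without the shift. On simulated data 21031 of 21442 features were solved, 21030 with the true FPKM. The simulated features were built from those already solved, with the lengths found for them, so a high share was to be expected. Their lengths and fragment numbers were not compared. Limits from fragments cover counting error only, and the spread within a stage is that between 2 libraries, which the labels do not tie to single trees. Alternatives covered the pseudocount, floor, scaling, limits and libraries. Python 3.11.15 with numpy 2.4.6, pandas 2.3.3, scipy 1.17.1 and numba 0.67.0 was used.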

Additional observations from a re-analysis of the deposited data

How the results depend on the processing

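Of the 62 genes, 45 met the rule with a pseudocount of 0.1, which took 58. A floor of 1 FPKM gave 117 genes, no floor 126 and a floor of 10 FPKM 38. TPM gave 162, a range below 0.25 gave 23 and a rise of at least 1 gave 41. The median rise of 1.13 was 1.30 with a pseudocount of 0.1 and 1.35 under TPM, and between 1.14 and 1.22 under the other scalings. Leaving out each recovered library in turn gave 53 to 70 genes, and 25 of the 60 recovered genes met the rule under all 8 such settings. Leaving out a 475CU or a 770CU library gave a median rise of 1.08 to 1.16, a value that the 0CU and 200CU libraries do not enter. The rule on the larger libraries alone gave 73 genes and on the smaller 58, with a median rise of 1.01 and 0.92 in the libraries not used. Both 770CU libraries exceeded the other 6 in 59 genes, also after rescaling by the median ratio, and in 60 with the TPM factor. No paired analysis was possible because neither the stage columns nor the libraries obtained from them are tied to a replicate number. The cause of these shifts was not tested beyond the construction of each setting. Depth limits the folds of the genes with fewer than 10 fragments in every earlier library.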
